A study of Saccharomyces cerevisiae with 12 samples.

Results

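This account concerns one interval in a time course of anoxia: the change in transcript ratios between 60 and 120 min of gas exposure in the budding yeast Saccharomyces cerevisiae. For each open reading frame (ORF) and each gas, the log2 ratio at 60 min was subtracted from the log2 ratio at 120 min, and the difference is called the turn here. The ORFs with a value on all 4 arrays of these times were kept, which gave 5730 of the 6150 ORFs in the table. The other 420 lacked a value on at least 1 of the 4 arrays. Of the 5730, 5392 matched a locus tag of the R64 annotation and 338 did not.

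All groups were the haploid laboratory strain BY4741, a deletion mutant for the marker genes HIS3, LEU2, MET17 and URA3, pregrown on glucose and laid on nylon membranes over solid YP acetate. The groups set against each other were cells held for 120 min and for 60 min in pure carbon monoxide (CO), and cells held for 120 min and for 60 min in pure nitrogen (N2), with 1 two-colour array each. Arrays of 15, 30 and 45 min and of 24 h in each gas, 12 arrays in all with these 4, supplied the estimate of spread. On each array RNA of the gas-exposed cells (Cy5) was set against RNA of cells kept in room air on the same medium for the same time (Cy3), and the labels describe the cells as reversibly arrested in division once anoxic. A positive log2 ratio is taken as higher in gas than in air. The ratio moves if either the gas-exposed or the air-exposed cells change, and these cannot be told apart. In bulk RNA, fewer cells that carry a transcript and less of it per cell cannot be told apart either.

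Acetate is a carbon source that yeast can use only by respiration. It enters metabolism as acetyl-CoA, is burnt in the tricarboxylic acid (TCA) cycle, and is turned into sugar through the glyoxylate cycle and a reversal of most glycolytic steps. Without oxygen, or with cytochrome oxidase blocked by CO, electrons cannot leave the respiratory chain, and acetate cannot be fermented. Ribosomal protein genes and ribosome assembly genes are the main consumers of the transcription machinery in growing yeast and are known to be lowered together in most stresses.

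With 1 array per gas and time there were no replicates, so the pair of gases stood in for them. Each turn was tested in limma in a fit of all 12 arrays with terms for time and gas, and p-values were adjusted over the 5730 ORFs (Benjamini-Hochberg). Each p measures the turn against the spread between arrays of the 2 gases and not between cultures. The sources used here do not say whether CO and N2 shared an air RNA at a given time. The number of arrays limits the precision, and the median standard error of a turn was 0.271. The 2 against 2 arrays alone cannot go below an exact two-sided permutation p of 0.333.

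The ratios spread further from air at 120 min. Their standard deviation over ORFs was 0.897 in CO and 0.847 in N2 at 120 min, and 0.747 in CO and 0.711 in N2 at 60 min, with medians between -0.05 and -0.01 on all 4 arrays. In both gases at once, 344 ORFs were at least 2-fold above air at 120 min and 162 at 60 min. Of these, 73 were shared, which is 21.2% of the 120 min set and 45.1% of the 60 min set. At least 2-fold below air in both gases were 513 ORFs at 120 min and 331 at 60 min. The 261 shared ORFs made up 50.9% of the 120 min set and 78.9% of the 60 min set. No ORF went from 2-fold on one side of air in both gases to 2-fold on the other.

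Between 60 and 120 min, 5 of 20 measured glycolytic genes, the pyruvate decarboxylase gene PDC1 and 9 of 121 cytosolic ribosomal protein genes fell relative to air in both gases, and a small set that includes the membrane protein gene HSP30, the flocculin gene FLO11 and the drug pump gene PDR5 rose. The test called 34 ORFs lower, which is 0.593% of those tested, and 8 higher, which is 0.14%. Together these 42 calls are 0.733% of the ORFs, while 961 ORFs had an unadjusted p under 0.05. All 42 moved in the same direction in both gases, their 120 min ratios did not overlap their 60 min ratios, and 41 changed at least 2-fold in each gas, with FAS2 the exception (turn of 0.89 in CO). Of the 42, 40 shared an adjusted p of 0.0492, just under the threshold of 0.05, and FBA1 had the smallest at 0.0153.

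The calls depended on single arrays. Without the N2 array of 120 min 0 of the 42 calls remained, with adjusted p of 0.085 to 0.154. Without the CO array of 120 min FBA1, PDC1, PGK1 and ENO1 remained. Without the N2 array of 60 min FBA1, PDC1, ERG1 and SRX1 remained, and without the CO array of 60 min FBA1 and NCA3 remained. By size alone, 48 ORFs (0.838%) were at least 2-fold higher and 104 (1.82%) at least 2-fold lower at 120 min than at 60 min in both gases. The step before, from 45 to 60 min, had 17 such ORFs higher and 10 lower, and the step after, from 120 min to 24 h, had 464 higher and 385 lower. In the same fit 0 ORFs (0.0%) were called in either direction from 45 to 60 min, while 1030 (18.0%) were called higher and 932 (16.3%) lower from 120 min to 24 h.

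**Figure D1:**
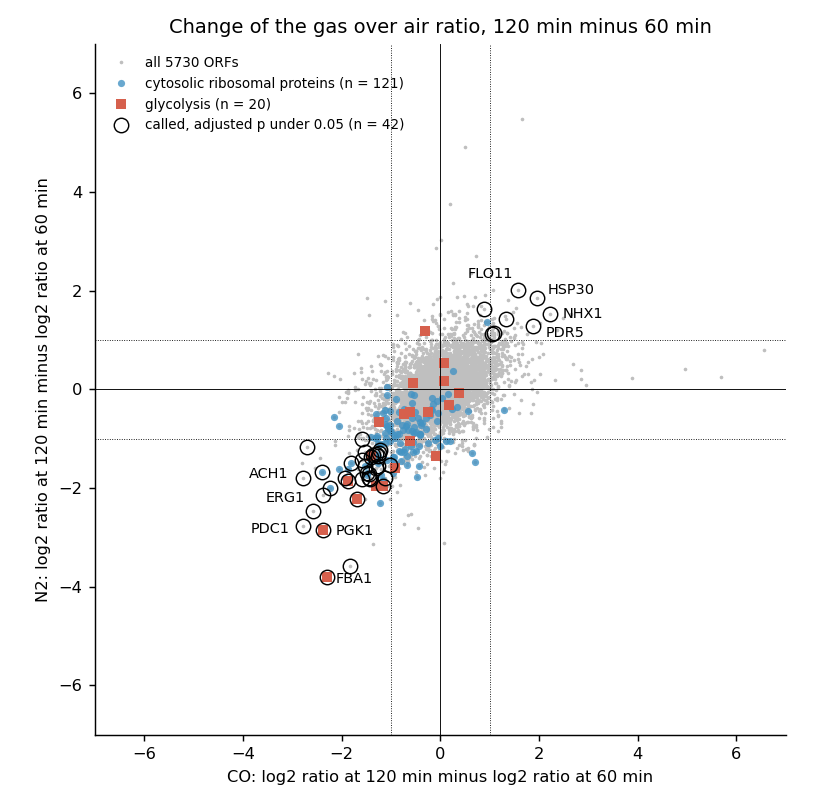
Turn (log2 ratio at 120 min minus log2 ratio at 60 min) of the 5730 ORFs in CO (x axis) and in N2 (y axis), with cytosolic ribosomal proteins in blue, glycolysis in red, and the 42 called ORFs circled. Dotted lines mark a 2-fold change. The called ORFs lie in the lower left and upper right corners, and FBA1 has the lowest mean turn, with -2.30 in CO and -3.81 in N2.

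FBA1, the single aldolase of yeast, which splits and in gluconeogenesis joins its sugar phosphates, fell most. Its log2 ratio was -1.88 in CO and -2.56 in N2 at 120 min, against 0.42 in CO and 1.25 in N2 at 60 min. Both 120 min values were below air and both 60 min values above it. The mean turn was -3.06 ± 0.32 (SE), an 8.31-fold lower ratio, with a limma adjusted p of 0.0153. PGK1, phosphoglycerate kinase, had log2 ratios of -2.27 in CO and -3.27 in N2 at 120 min, against 0.10 in CO and -0.42 in N2 at 60 min, a turn of -2.61 ± 0.38 (adjusted p = 0.0492). Its ratio was thus near that of air at 60 min and well below it at 120 min. YCR013C, the ORF listed next to PGK1 (YCR012W) by name and without an entry in R64, had -2.75 in CO and -2.51 in N2 at 120 min, against -0.16 in CO and -0.04 in N2 at 60 min. Its spot may share signal with PGK1, which was not tested, so it may not be a separate call.

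Lower glycolysis, the energy-yielding steps from triose phosphates to pyruvate, had 10 members measured, of which 4 were called lower and 0 higher. In 8 of the 10 both 120 min ratios lay below both 60 min ratios, which is 80.0% where 22.9% of all ORFs did so. The median turn was -1.20 in CO and -1.73 in N2, where the median of all ORFs was 0.02 in each. The glyceraldehyde-3-phosphate dehydrogenase gene TDH3 had log2 ratios of -0.60 in CO and -1.18 in N2 at 120 min, against 1.28 in CO and 0.68 in N2 at 60 min. Its close relative TDH2 had -0.83 in CO and -1.70 in N2 at 120 min, against 0.86 in CO and 0.53 in N2 at 60 min. Both crossed the level of air in both gases, with turns of -1.87 ± 0.31 for TDH3 and -1.96 ± 0.29 for TDH2 (adjusted p = 0.0492 each). ENO1, enolase, fell by 1.56 ± 0.27 (adjusted p = 0.0492) and its near-identical copy ENO2 had a turn of -1.63 ± 0.33 (adjusted p = 0.0597).

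CDC19, the main pyruvate kinase, had a turn of -1.25 ± 0.33, GPM1, phosphoglycerate mutase, -0.95 ± 0.42, and TDH1 -0.82 ± 0.27, none of them called. PYK2, a pyruvate kinase used at low glycolytic flux, had -0.22 ± 0.40 and GPM2, a relative of GPM1, -0.07 ± 0.25. Near-identical copies such as TDH2 and TDH3 can share signal on an array. On the median the list went along near or above air up to 60 min, at 0.51, 0.68, 0.56 and 1.01 in CO and 0.40, 0.70, 0.60 and 0.64 in N2 at 15, 30, 45 and 60 min. At 120 min it lay at -0.22 in CO and -0.96 in N2, and by 24 h CO stood at -0.46 and N2 at -1.05. Set against 45 min in place of 60 min, the same number of members, 8 of 10, had both 120 min ratios lower.

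Among the 10 genes of upper glycolysis and the hexose kinases FBA1 alone was called, and 6 had both 120 min ratios lower (60.0%, where 22.9% of all ORFs did so). PGI1, phosphoglucose isomerase, had -1.19 in CO and -1.38 in N2 at 120 min, against 0.22 in CO and -0.03 in N2 at 60 min, a turn of -1.38 ± 0.26 at an adjusted p of 0.0509. The phosphofructokinase subunits, whose step is not reversed in gluconeogenesis, had smaller turns, -0.62 ± 0.22 for PFK1 and -0.36 ± 0.29 for PFK2. Without the N2 array of 120 min the adjusted p was 0.085 for FBA1, 0.101 for PGK1, 0.102 for TDH2 and 0.123 for TDH3 and ENO1.

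**Figure D2:**
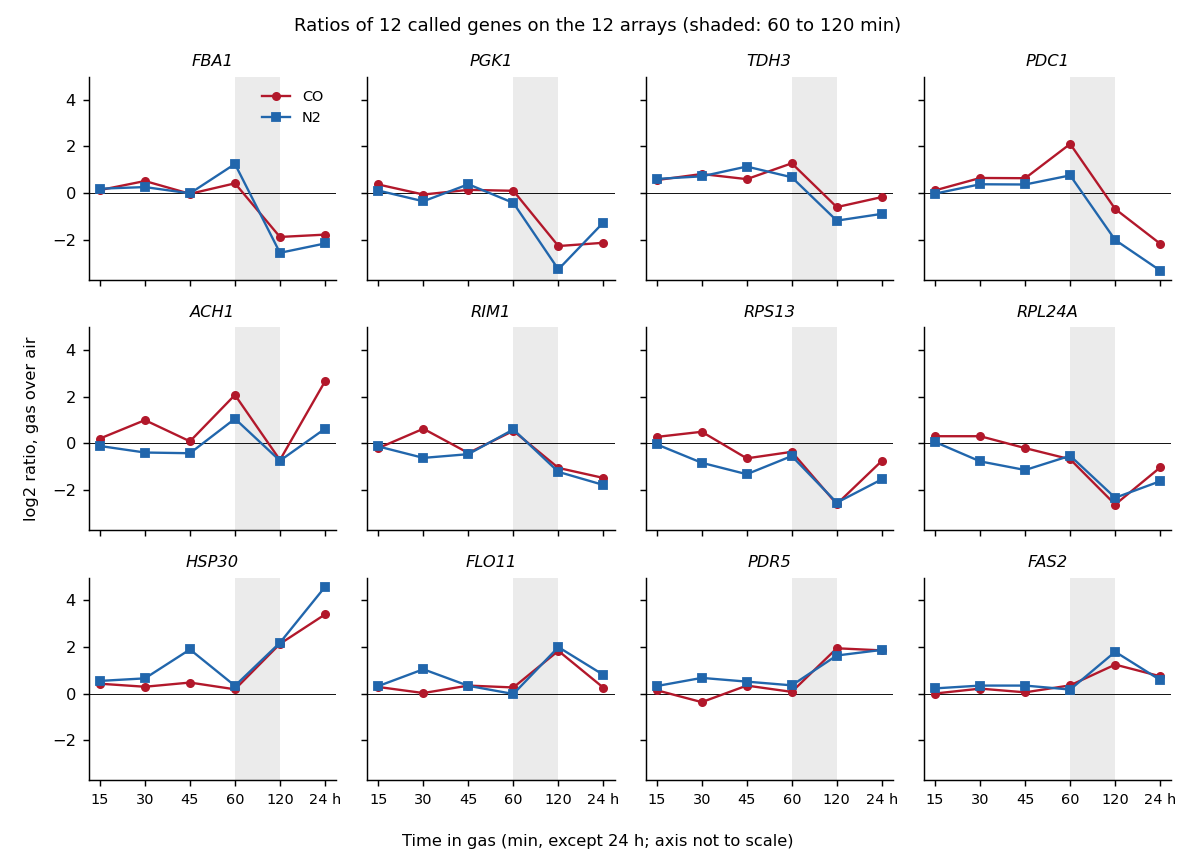
Log2 ratio of gas over air (y axis) of 12 called genes at 6 times (x axis, not to scale), CO as red circles and N2 as blue squares, 1 array per point. The interval from 60 to 120 min is shaded. The glycolytic genes and PDC1 lie near or above air up to 60 min and below it at 120 min, and HSP30, FLO11, PDR5 and FAS2 are above air at 120 min.

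Of the 13 genes of fermentation, which makes ethanol from pyruvate, PDC1 was called lower. In 6 both 120 min ratios were lower (46.2%, where 22.9% of all ORFs did so). PDC1, the main pyruvate decarboxylase, had -0.68 in CO and -2.01 in N2 at 120 min, against 2.11 in CO and 0.76 in N2 at 60 min. It was below air on both arrays at 120 min and above air on both at 60 min. The turn was -2.78 ± 0.35, a 6.87-fold lower ratio (adjusted p = 0.0355). Without the CO array of 60 min the adjusted p was 0.0954, and without the N2 array of 120 min 0.0965. Its paralogue PDC5 had -0.33 in CO and -2.22 in N2 at 120 min, against 1.03 in CO and 0.92 in N2 at 60 min (-2.25 ± 0.45, adjusted p = 0.0565). ADH1, the main fermentative alcohol dehydrogenase, had a turn of -0.54 ± 0.38, and ADH2, which burns ethanol, -1.10 ± 0.30.

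Some mitochondrial genes that feed and run respiration were called lower. In the acetate transport and carnitine shuttle list ACH1 was the 1 call among 12 members, and the list did not lean lower on both arrays. Both 120 min ratios were lower in 2 (16.7%) and higher in 2 (16.7%), where 22.9% and 25.1% of all ORFs did so. The median turn was -0.78 in CO and 0.08 in N2. In the list of NADH dehydrogenases and other electron donors CYB2 was the 1 call among 8. Of these 3 (37.5%) were lower on both and 1 (12.5%) higher, with a median of -0.34 in CO and 0.27 in N2. ACH1, which moves coenzyme A onto acetate in mitochondria, had -0.71 in CO and -0.74 in N2 at 120 min, against 2.08 in CO and 1.06 in N2 at 60 min. It fell by 2.30 ± 0.42 and passed from above to below air in both gases (adjusted p = 0.0492). Its 45 min ratios were 0.09 in CO and -0.42 in N2, so the 60 min values were high against the times on either side. Set against 45 min, its turn was -0.56 (adjusted p = 0.582). PDB1, a subunit of pyruvate dehydrogenase, fell by 1.52 ± 0.25, RIM1, which binds single-stranded mitochondrial DNA, by 1.70 ± 0.31, MIR1, the mitochondrial phosphate carrier, by 1.58 ± 0.27, and CYB2, which passes electrons of lactate to cytochrome c, by 1.62 ± 0.30 (adjusted p = 0.0492 each). Set against 45 min the turns of PDB1, RIM1, MIR1 and CYB2 were -0.64, -0.70, -1.10 and -1.44, with adjusted p of 0.0736 to 0.336. NCA3, linked to expression of the mitochondrial ATP synthase, had -2.96 in CO and -3.51 in N2 at 120 min, against -1.13 in CO and 0.07 in N2 at 60 min, a turn of -2.70 ± 0.42 (adjusted p = 0.0492). Without the N2 array of 120 min the adjusted p of these 6 genes was 0.0965 to 0.148.

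The TCA cycle list had 0 of 18 members called, and in 9 (50.0%) both 120 min ratios were lower. Over all ORFs 22.9% were lower on both arrays. SDH4, a membrane anchor of succinate dehydrogenase, had -0.82 in CO and -0.74 in N2 at 120 min, against 0.67 in CO and 0.57 in N2 at 60 min (-1.40 ± 0.29, adjusted p = 0.0684). IDH2, KGD2 and MDH1, enzymes of the isocitrate, ketoglutarate and malate steps, had turns of -1.25 ± 0.27, -1.19 ± 0.29 and -1.14 ± 0.31. Cytochrome c with complexes III and IV had 0 of 17 called and 11 (64.7%) lower on both arrays, and 7 when set against 45 min. RIP1, the Rieske protein of complex III, had -0.94 in CO and -0.57 in N2 at 120 min, against 0.94 in CO and 0.37 in N2 at 60 min (-1.41 ± 0.34, adjusted p = 0.0839). The ATP synthase list had 0 of 19 called and 11 (57.9%) lower on both, with ATP7 at -1.91 ± 0.52. Its median turn was -0.95 in CO and -0.42 in N2.

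Members of the glyoxylate cycle and gluconeogenesis list did not lean lower: 0 of 13 had both 120 min ratios below, 3 had both above (23.1%, where 25.1% of all ORFs did so), and none was called. CIT2, the peroxisomal citrate synthase, had 1.13 in CO and 1.40 in N2 at 120 min, against 0.23 in CO and -0.52 in N2 at 60 min (1.41 ± 0.32, adjusted p = 0.0758). PCK1, the enzyme that commits carbon to gluconeogenesis, had a turn of 0.92 ± 0.26 (adjusted p = 0.124).

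Cytosolic ribosomal protein genes were the most numerous group among the calls, 9 of the 34 lower ORFs. In the small-subunit list 6 of 49 measured members were called lower. In 38 (77.6%) both 120 min ratios lay below both 60 min ratios, where 22.9% of all ORFs did so. In the large-subunit list 3 of 72 were called lower, and 54 (75.0%) had both ratios lower. The list medians were -2.14 in CO and -1.83 in N2 at 120 min, against -1.25 in CO and -0.86 in N2 at 60 min, for the small subunit. For the large subunit they were -2.05 in CO and -1.81 in N2 at 120 min, against -1.30 in CO and -0.89 in N2 at 60 min. On the median they were below air at 60 min and further below at 120 min.

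RPS13 had log2 ratios of -2.60 in CO and -2.54 in N2 at 120 min, against -0.36 in CO and -0.54 in N2 at 60 min. RPS25A had -2.39 in CO and -1.99 in N2 at 120 min, against 0.01 in CO and -0.31 in N2 at 60 min. In both genes the gases lay closer to each other than the times did, and the turns were -2.12 ± 0.31 and -2.04 ± 0.33 (adjusted p = 0.0492 each). RPL24A fell by 1.87 ± 0.34, RPS24B by 1.66 ± 0.29 and RPS7A by 1.59 ± 0.29, and RPL6A, RPL2A, RPS11B and RPS0A were also called. RPS0A was among the lowest at both times, with -3.22 in CO and -3.42 in N2 at 120 min, against -1.92 in CO and -2.12 in N2 at 60 min. Turns over the 121 genes of both lists ran from -2.12 for RPS13 to 1.15 for RPL20B, whose ratios were -0.46 in CO and -1.08 in N2 at 120 min, against -1.40 in CO and -2.44 in N2 at 60 min. Paralogous ribosomal protein genes can share signal. Without the N2 array of 120 min the adjusted p of the 9 called genes was 0.085 to 0.129.

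Ribosome biogenesis factors are the nucleolar proteins that process ribosomal RNA. Of 94 members 0 were called, 14 (14.9%) had both 120 min ratios lower and 21 (22.3%) had both higher, where 22.9% and 25.1% of all ORFs did so. The higher count was 37 under quantile normalization and 9 against 45 min. Their median log2 ratio was -1.06 in CO and -0.95 in N2 at 120 min, against -1.34 in CO and -0.85 in N2 at 60 min. On the median they were below air at both times. RRS1 had the lowest turn (-1.50 ± 0.35, adjusted p = 0.0834) and NOP53 the highest (0.92 ± 0.29, adjusted p = 0.169). Between 45 and 120 min 33 of 93 members had both ratios lower. The 8 genes of RNA polymerase I and the 11 of RNA polymerase III had 0 calls, with medians between -0.12 and 0.24.

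Translation factors leaned lower without a call. In 19 of 37 (51.4%) both 120 min ratios were below both 60 min ratios, where 22.9% of all ORFs did so. The median turn was -0.42 in CO and -0.38 in N2. EFB1, which reloads elongation factor with GTP, had -1.25 in CO and -1.63 in N2 at 120 min, against 0.21 in CO and 0.11 in N2 at 60 min (-1.60 ± 0.38, adjusted p = 0.0836). PAB1, the poly(A)-binding protein, had a turn of -1.31 ± 0.25 (adjusted p = 0.0512). ANB1, the anaerobic form of initiation factor eIF5A, had -0.73 in CO and -0.83 in N2 at 120 min, against 0.93 in CO and 0.09 in N2 at 60 min, and its aerobic twin HYP2 had -0.44 in CO and -1.03 in N2 at 120 min, against 0.64 in CO and 0.09 in N2 at 60 min. Their sequences are alike, so the pair may share signal.

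Other parts of protein synthesis and turnover had no calls. Among cytosolic tRNA synthetases 10 of 19 (52.6%) had both 120 min ratios lower, and SES1, which charges serine tRNA, had -2.39 in CO and -1.64 in N2 at 120 min, against 0.15 in CO and -0.05 in N2 at 60 min (-2.06 ± 0.44, adjusted p = 0.0684). Mitochondrial ribosomal proteins, which serve the few mitochondrial genes, had 21 of 73 (28.8%) lower and 11 (15.1%) higher on both. Their median turn was -0.26 in CO and -0.02 in N2. Over all ORFs 22.9% were lower and 25.1% higher on both, so the lower share of this list is near that of all ORFs. Of 34 proteasome genes 13 (38.2%) were lower on both, and PRE5, a core subunit, had 0.08 in CO and 0.37 in N2 at 120 min, against 1.84 in CO and 1.16 in N2 at 60 min (-1.27 ± 0.33, adjusted p = 0.106). Of 25 purine synthesis genes 10 (40.0%) were lower on both, with ADE17 at -1.22 ± 0.30.

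**Figure D3:**
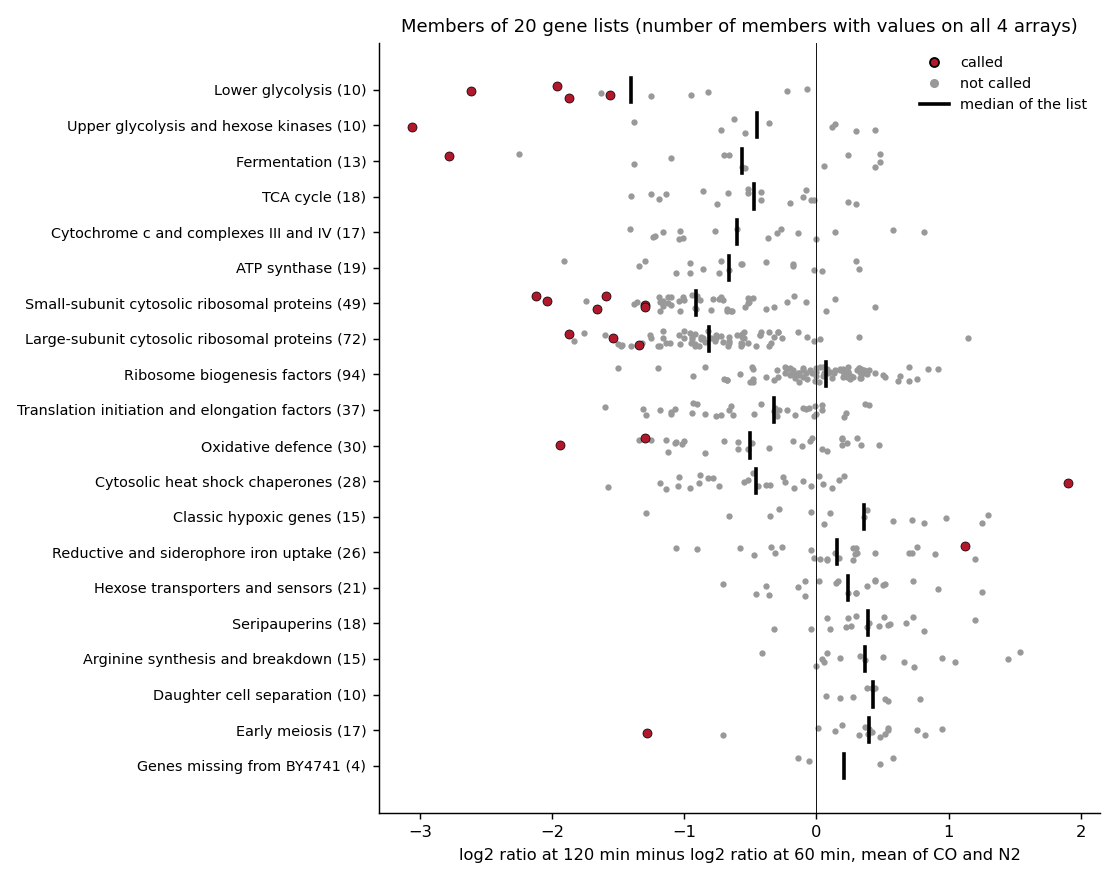
Mean turn of both gases (x axis, log2) of the members of 20 gene lists (rows, number of members in parentheses), called members in red, others in grey, and a bar at the list's median. Lower glycolysis has the lowest median and both ribosomal protein lists lie left of 0, while the ribosome biogenesis factors centre near 0.

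Genes of oxidative defence were lower in part. Of 30 members SRX1 and TSA1 were called lower. Both 120 min ratios were lower in 16 (53.3%, where 22.9% of all ORFs did so), though in 8 when set against 45 min. SRX1, sulfiredoxin, which repairs overoxidised peroxiredoxin, had -2.13 in CO and -1.06 in N2 at 120 min, against 0.58 in CO and 0.11 in N2 at 60 min (-1.94 ± 0.33, adjusted p = 0.0492). TSA1, the main cytosolic peroxiredoxin, had -1.17 in CO and -0.69 in N2 at 120 min, against 0.42 in CO and 0.31 in N2 at 60 min (-1.30 ± 0.24, adjusted p = 0.0492). Both were above air at 60 min and below it at 120 min, and both had an adjusted p of 0.085 without the N2 array of 120 min. SRX1 had already been below air at 45 min, at -0.94 in CO and -0.37 in N2. Set against 45 min the turn was -0.94 for SRX1 (adjusted p = 0.234) and -0.76 for TSA1 (adjusted p = 0.18). The other peroxiredoxin genes AHP1, PRX1 and TSA2 had turns of -1.34 ± 0.46, -1.0 ± 0.34 and -0.84 ± 0.33, none of them called.

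Of 28 genes on the heat shock chaperone list 14 (50.0%) had both 120 min ratios lower, where 22.9% of all ORFs did so. HSP30 alone was called, as higher, and it encodes a plasma membrane protein and not a cytosolic chaperone. SSA2, a constitutive Hsp70, had -1.84 in CO and -1.46 in N2 at 120 min, against 0.29 in CO and -0.42 in N2 at 60 min (-1.58 ± 0.34, adjusted p = 0.0684). Its partner YDJ1 had a turn of -1.18 ± 0.26. HSP104, the disaggregase, had -0.10 ± 0.27. Outside the list, the prolyl isomerase genes FPR1, CPR4 and CPR2 were called lower, and were not taken from a list of that family: FPR1 fell by 1.62 ± 0.30, CPR4 by 1.39 ± 0.22 and CPR2 by 1.23 ± 0.23 (adjusted p = 0.0492 each, 0.112 to 0.129 without the N2 array of 120 min). FPR1 lay at 0.12 in CO and -0.36 in N2 at 120 min, against 1.55 in CO and 1.45 in N2 at 60 min.

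The general stress genes, targets of the activators Msn2 and Msn4, were mixed, and 0 of 22 were called. Both 120 min ratios were lower in 9 (40.9%) and higher in 3 (13.6%), where 22.9% and 25.1% of all ORFs did so. GRE2, a reductase of reactive aldehydes, had 2.85 in CO and 2.27 in N2 at 120 min, against 1.55 in CO and 0.79 in N2 at 60 min (1.39 ± 0.37, adjusted p = 0.108). HSP12, which protects membranes, had a turn of 1.03 ± 0.33, and GRE3, an aldose reductase, -1.10 ± 0.44. GPP1, which releases glycerol from its phosphate, had -3.82 in CO and -2.22 in N2 at 120 min, against -1.01 in CO and -0.72 in N2 at 60 min (-2.15 ± 0.51, adjusted p = 0.0839), a wide turn that was not called.

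The remaining lower calls were of mixed function. ERG1, squalene epoxidase, the first enzyme of sterol synthesis that consumes oxygen, had -2.52 in CO and -2.94 in N2 at 120 min, against -0.15 in CO and -0.80 in N2 at 60 min, and fell by 2.26 ± 0.34 (adjusted p = 0.0492, and 0.106 without the N2 array of 120 min). At 45 min its ratio had been -1.97 in CO and -1.17 in N2, and set against 45 min its turn was -1.16 (adjusted p = 0.149). ERG1 was the single call in the ergosterol list. Of its 24 members 7 (29.2%) had both 120 min ratios lower and 2 (8.33%) both higher, where 22.9% and 25.1% of all ORFs did so. Wall protein genes HSP150 and PST1, the vesicle traffic GTPase gene YPT1, the pentose phosphate epimerase gene RPE1, the transcription factor gene YAP7 and RIM4, which encodes an RNA-binding protein of meiosis, fell by amounts between those of YAP7 (-1.27 ± 0.24) and PST1 (-1.46 ± 0.26).

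A set of 11 ORFs lay at least 0.5 above air at 60 min in both gases and at least 0.5 below it at 120 min in both, which is 0.192% of those measured, and 0 made the opposite crossing. They were PDC1, ACH1, TDH2, TDH3, RIM1, PDB1, HSP150, YPT1, SDH4, CPR4 and HSP33, so 9 of the 11 were also called. These names were chosen by their ratios at both times, and the count is a description. Not all had been above air before 60 min. At 45 min RIM1, PDB1, SDH4 and CPR4 were below air in both gases, and PDC1, TDH2 and TDH3 above it in both. ACH1 and HSP33 were above air in 1 gas and below it in the other. Set against 45 min the turns were -0.24 for CPR4, -0.64 for PDB1 and -0.70 for RIM1, but -1.85 for PDC1 and -1.76 for TDH2 and TDH3. HSP150 had -0.72 in CO and -0.92 in N2 at 120 min, against 0.59 in CO and 0.67 in N2 at 60 min. HSP33, of the DJ-1 superfamily, had -0.59 in CO and -0.56 in N2 at 120 min, against 0.73 in CO and 0.81 in N2 at 60 min (adjusted p = 0.0684).

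**Figure D4:**
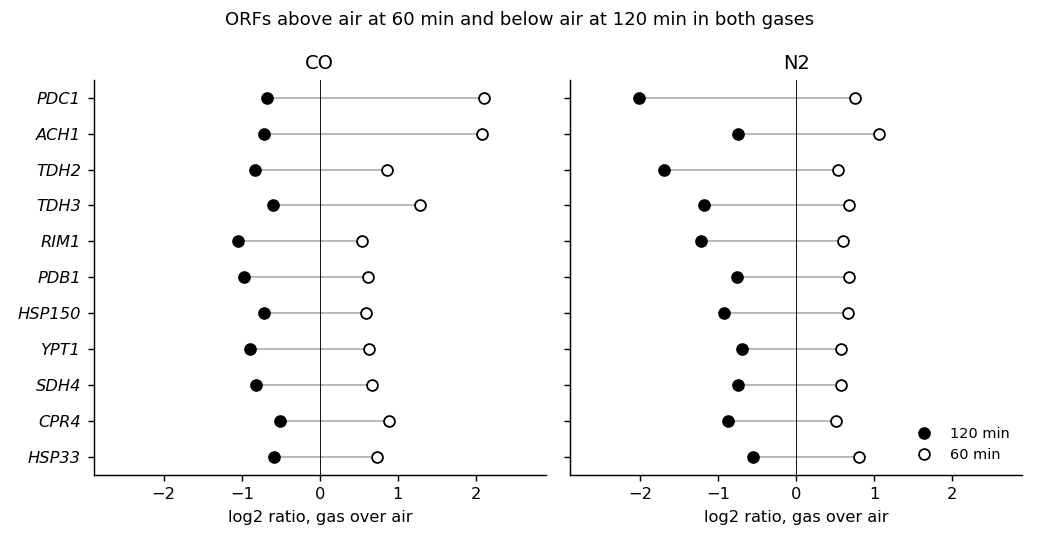
Log2 ratio of gas over air (x axis) of the 11 ORFs that lay above air at 60 min (open circles) and below it at 120 min (filled circles) in both gases, CO left and N2 right, 1 array per point. PDC1 has the widest gap on the mean of both gases, -0.68 at 120 min against 2.11 at 60 min in CO and -2.01 at 120 min against 0.76 at 60 min in N2.

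The 8 ORFs that rose had ratios between 1.25 and 2.19 at 120 min and between -0.28 and 0.91 at 60 min. HSP30, a plasma membrane protein that restrains the proton pump, had log2 ratios of 2.14 in CO and 2.19 in N2 at 120 min, against 0.19 in CO and 0.34 in N2 at 60 min. The gases lay close together at both times, and the turn was 1.90 ± 0.35, a 3.73-fold higher ratio (adjusted p = 0.0492). In N2 it had been at 1.90 at 45 min, so the 60 min value was low against the times on either side, and set against 45 min its turn was 0.98 (adjusted p = 0.244). NHX1, an endosomal exchanger of protons for sodium and potassium, had 1.95 in CO and 1.33 in N2 at 120 min, against -0.28 in CO and -0.20 in N2 at 60 min (1.88 ± 0.33). FLO11, the flocculin of surface adhesion, had 1.84 in CO and 2.0 in N2 at 120 min, against 0.27 in CO and -0.01 in N2 at 60 min (1.79 ± 0.30). Each had an adjusted p of 0.0492, and the 60 and 120 min ratios were more than 1 apart in each gas.

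PDR5, an efflux pump for many drugs, had 1.95 in CO and 1.64 in N2 at 120 min, against 0.08 in CO and 0.36 in N2 at 60 min (1.58 ± 0.29). FAS2, a subunit of fatty acid synthase, had 1.25 in CO and 1.80 in N2 at 120 min, against 0.36 in CO and 0.18 in N2 at 60 min (1.25 ± 0.24). ARN2, a siderophore importer, had 1.71 in CO and 1.84 in N2 at 120 min, against 0.62 in CO and 0.69 in N2 at 60 min (1.12 ± 0.21). RCN2, a calcineurin-related protein gene, rose by 1.08 ± 0.20 and YFL057C, without a symbol in R64, by 1.38 ± 0.26. The adjusted p was 0.0492 for each of the 5, and 0.101 to 0.154 for the 8 risers without the N2 array of 120 min. Ranked by the smaller of the changes in the 2 gases, the next ORFs, none of them called, were YGR122C-A, YGR050C, YGR151C and YFL051C, with adjusted p of 0.0699 to 0.173. The turn of YGR122C-A (3.57) rested on a ratio of -4.49 in N2 at 60 min, and was 1.10 without that array and 0.27 against 45 min.

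Some lists leaned higher with few or no calls. Among the seripauperins, small wall proteins of anaerobic cells, 9 of 18 (50.0%) had both 120 min ratios above both 60 min ratios, where 25.1% of all ORFs did so, and 0 had both below. Turns were positive for 17 and negative for 1 in CO (median 0.62), and positive for 10 and negative for 8 in N2 (median 0.27). PAU12 had 1.11 in CO and 1.18 in N2 at 120 min, against 0.05 in CO and -0.16 in N2 at 60 min (1.20 ± 0.37, adjusted p = 0.154). The seripauperins are so alike that their ORFs may share signal. Arginine metabolism had 8 of 15 (53.3%) higher on both and 0 called. ARG3, ARG4 and ARG1, which carry ornithine to arginine, had turns of 1.54 ± 0.46, 1.05 ± 0.38 and 0.95 ± 0.35.

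Daughter cell separation genes, which cut the septum after division, had 7 of 10 (70.0%) higher on both arrays, 4 of 10 under quantile normalization, and 0 called. Over all ORFs 25.1% were higher and 22.9% lower on both. CTS1, the chitinase, had 1.55 in CO and 2.28 in N2 at 120 min, against 1.09 in CO and 1.17 in N2 at 60 min. The early meiosis list had 11 of 17 (64.7%) higher on both, against its 1 call, RIM4, which fell. IME1, the master inducer of meiosis, had -0.83 in CO and -1.36 in N2 at 120 min, against 0.04 in CO and -0.81 in N2 at 60 min. The other members had turns of 0.95 (SPS4) or less, and against 45 min 7 of 17 were higher on both arrays. Hexose transporters and sensors had 9 of 21 (42.9%) higher on both and 2 (9.52%) lower on both, led by MTH1, a repressor of the transporter genes (1.25 ± 0.27, adjusted p = 0.0684). In CO 17 members had a positive turn and 4 a negative one (median 0.18). In N2 the list was split, with 11 positive and 10 negative (median 0.04).

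**Figure D5:**
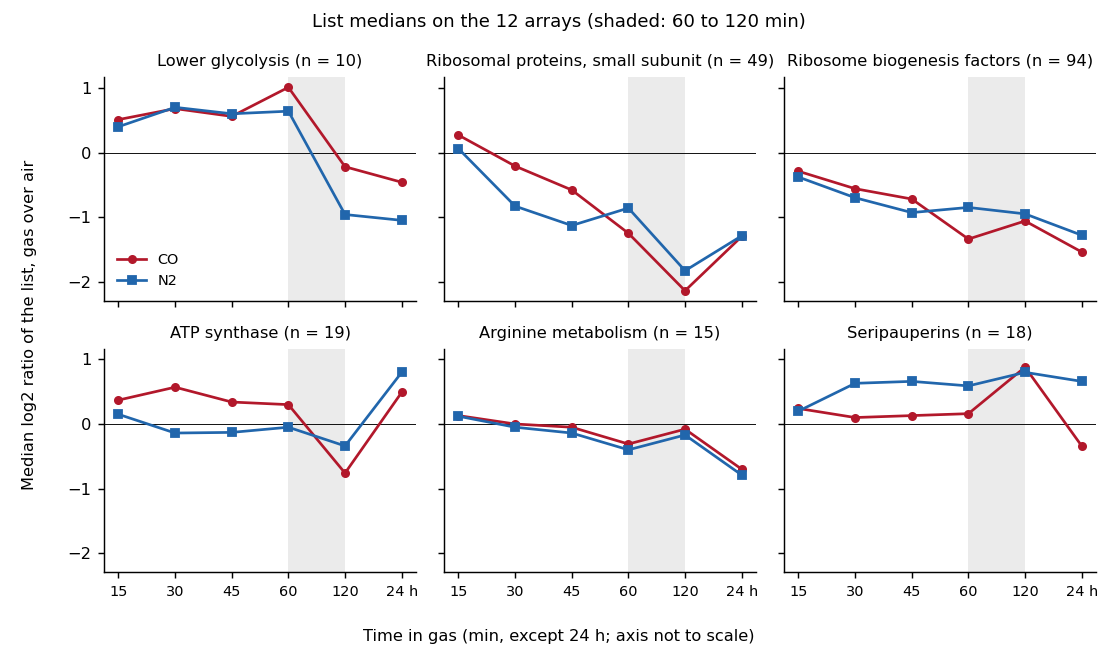
Median log2 ratio of gas over air (y axis) of 6 gene lists at 6 times (x axis, not to scale), CO as red circles and N2 as blue squares, with the interval from 60 to 120 min shaded. Lower glycolysis is above air until 60 min and below it at 120 min, the small-subunit ribosomal proteins are lowest at 120 min, and the ribosome biogenesis factors lie between -1.34 and -0.85 at 60 and 120 min.

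The regulators of oxygen and heme response were not called. HAP4, the limiting subunit of the activator of respiratory genes, had 0.07 in CO and -0.05 in N2 at 120 min, against -0.75 in CO and -0.53 in N2 at 60 min (0.65 ± 0.24, adjusted p = 0.218). SUT1, a regulator of sterol uptake, had 3.11 in CO and 2.13 in N2 at 120 min, against 2.11 in CO and 1.52 in N2 at 60 min (0.80 ± 0.32, adjusted p = 0.244). ROX1, the repressor of hypoxic genes, had a turn of 0.11 ± 0.27, MOT3, its partner, -0.54 ± 0.42, HAP1, the heme-dependent activator, -0.36 ± 0.27, and UPC2, the sterol sensor, -0.09 ± 0.39. Of 15 classic hypoxic genes 0 were called and 5 (33.3%) had both 120 min ratios higher, where 25.1% of all ORFs did so. Both were lower in 1 (6.67%, where 22.9% of all ORFs were), ANB1, with a turn of -1.29 ± 0.27. Turns were negative for 6 of the 15 in CO and 4 in N2. IZH4, a membrane protein gene, had 3.21 in CO and 5.81 in N2 at 120 min, against 2.50 in CO and 3.93 in N2 at 60 min. OLE1, the oxygen-requiring fatty acid desaturase, was high throughout, with 1.81 in CO and 2.94 in N2 at 120 min, against 1.09 in CO and 2.91 in N2 at 60 min (0.38 ± 0.39).

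The next question was whether the turn differed between the gases. In CO alone 249 ORFs (4.35%) were at least 2-fold higher and 302 (5.27%) at least 2-fold lower at 120 min, and in N2 alone 182 (3.18%) and 272 (4.75%), with no test since each is 1 array against 1. Quantile normalization left 135 ORFs higher in CO. The difference of the turns, CO minus N2, was called for 0 ORFs (0.0%) by limma, with 167 at an unadjusted p under 0.05 and a smallest adjusted p of 0.733. The median standard error of this difference was 0.551, so differences of the size seen were mostly not detectable, and the gases were not shown to act alike. FBA1 differed by 1.51 ± 0.46 and SRX1 by -1.54 ± 0.48, both not called.

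Most of the widest differences between the gases went with 1 low value at 60 min. MRPL35, a mitochondrial ribosomal protein gene, had -0.67 in CO and -0.27 in N2 at 120 min, against -7.22 in CO and -1.06 in N2 at 60 min. YHR127W had -6.46, YNL143C -4.10, RIB7 -4.09 and STE12 -3.66 in CO at 60 min, while SEC1 had -4.99 and CWC21 -3.54 in N2 at 60 min, with all 120 min values of these genes between -0.92 and 0.86. YIR040C went with 1 high value, 3.08 in N2 at 60 min. Ratios of -3 or less that also lay at least 2 below the other gas numbered 6 on the CO array and 4 on the N2 array of 60 min, and 0 on both arrays of 120 min. GLR1, glutathione reductase, differed without such a spot: 0.28 in CO and 1.66 in N2 at 120 min, against 1.76 in CO and -0.20 in N2 at 60 min, a difference of -3.34 ± 0.53 (unadjusted p = 0.000155, not called). YGL034C (-3.01 ± 0.49) and YAR070C (-2.96 ± 0.52) likewise had lower turns in CO, also not called.

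The values at 60 min departed from those at 45 min in the ORFs that turned. Of the 104 ORFs at least 2-fold lower in both gases, 76 in CO and 89 in N2 had a 60 min ratio above their 45 min ratio, as did 46.6% of all ORFs in CO and 49.7% in N2. Of the 48 at least 2-fold higher, 35 in CO and 42 in N2 had a 60 min ratio below their 45 min ratio, as did 52.6% of all ORFs in CO and 49.3% in N2. The 60 min arrays helped to choose these ORFs, and their part in the result was not tested. Set against 45 min the mean turn of some called genes was small, -0.24 for CPR4, -0.38 for RPE1 and -0.47 for YPT1, while PGK1 (-3.03) and NCA3 (-3.41) were still called (adjusted p = 0.0225 each). The 104 had a median of -1.31 in CO and -1.37 in N2 at 120 min. By 24 h it stood at -0.70 in CO and -1.06 in N2. The 48 had a median of 1.57 in CO and 1.44 in N2 at 120 min. By 24 h it stood at 0.54 in CO and 1.73 in N2. The marker genes HIS3, LEU2, MET17 and URA3, taken here as a background, had ratios between -0.91 and 0.55 on the 4 arrays, turns between -0.14 and 0.58, and 0 calls. Whether a part of any of them remains and is transcribed was not tested.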

How the data were processed

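RNA of gas-exposed (Cy5) and air-exposed (Cy3) cells was compared on 12 arrays, per the labels. The authors deposited 1 table of log2 ratios per ORF, given to 2 decimals, used here as deposited. The sources used here give no background correction, normalization, log base, direction, probes or build, so no coordinates or sequences are printed. Base 2 was taken from the range of values and gas over air from the dyes. Signal over background was not used here, so the depth behind each ratio is unknown.

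Symbols came from RefSeq R64 by locus tag. With limma 3.58.1 under R 4.3.3, lmFit and eBayes were run on the 5730 ORFs, with terms for time and gas (5 residual degrees of freedom) and the contrast 120 min minus 60 min. A further term gave the difference of the turns, CO minus N2 (4 residual degrees of freedom). Benjamini-Hochberg adjustment ran over all 5730 ORFs, with a threshold of 0.05. Scripts were tested on simulated data. Fold counts used 2-fold. A list is described by its members called, by members whose 120 min ratios both lie beyond both 60 min ratios, and by its median.

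Members and the 60 lists were chosen with earlier results of these data known. Genes named were up to 12 called ORFs in each direction by mean turn (filled up by the smaller of the changes in the 2 gases where fewer were called), crossings of air by at least 0.5 in both gases, the 6 widest differences between gases in each direction, up to 4 members of a list by size of turn, and fixed regulators. Named beyond this rule, after their values were seen, were the remaining called ORFs, the multidrug and Ty members, and PYK2, GPM1, GPM2, TDH1, CDC19, PFK2, ADH1, HYP2, HSP104, OLE1, PRX1, TSA2, IME1 and RPL20B. SIS2 was taken off the chaperone list after values were seen, since it is no chaperone gene. HSP30, a plasma membrane protein gene, stayed on that list.

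Alternatives were median centring, quantile normalization, ORFs with values on all 12 arrays, fits without the 24 h arrays, of the 4 arrays alone, without the gas term or with array weights, each of the 4 arrays left out, and other fold thresholds. The use of 45 min in place of 60 min was added after seeing the data. No sample pairing by number is given in the labels.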

Additional observations from a re-analysis of the deposited data

How the results depend on the processing

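The counts of calls moved with nearly every choice. Against 8 higher and 34 lower, quantile normalization gave 0 and 2, the 4 arrays alone (1 residual degree of freedom) 0 and 0, the fit with no replicate block (time without gas) 0 and 1, the fit without the 24 h arrays 59 and 111, array weights 27 and 85, and 120 min minus 45 min 0 and 3. Leaving out each of the 4 arrays gave 0 to 6 higher and 0 to 6 lower. Median centring (6 and 39) and ORFs with values on all 12 arrays (9 and 41) stayed within 1.5 times, and kept 39 and 42 of the 42 calls. The cause of these shifts was not tested. The CO minus N2 count stayed at 0 under centring, quantile normalization, ORFs on all 12 arrays and without the 24 h arrays. Of the counts in 1 gas, a 1.5-fold threshold gave 805 higher and 816 lower in CO and 638 higher and 701 lower in N2, a 3-fold threshold gave 44, 62, 29 and 59 in the same order, and quantile normalization 135 higher in CO. Of the list counts, complexes III and IV moved to 7, oxidative defence to 8, early meiosis to 7 and ribosome biogenesis (higher) to 9 when set against 45 min, and under quantile normalization ribosome biogenesis (higher) moved to 37, daughter separation to 4 and iron uptake to 5. The other list counts that were recomputed moved by 1.5 times or less. No paired analysis by replicate number was possible because each gas and time has 1 array.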

Other observations

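Among multidrug efflux pumps and their regulators, a list drawn up after PDR5 and its relatives were seen among the higher ORFs, 9 of 14 members had both 120 min ratios above both 60 min ratios and 0 had both below, with PDR5 the single call. Over all ORFs 25.1% had both above and 22.9% both below. Since the list was drawn up from these values, its count is a description. SNQ2, a pump of the same family, had 1.32 in CO and 0.95 in N2 at 120 min, against -0.18 in CO and -0.09 in N2 at 60 min. TPO1, a polyamine exporter, had 1.66 in CO and 1.33 in N2 at 120 min, against 0.14 in CO and 0.23 in N2 at 60 min. PDR15 had 2.10 in CO and 1.33 in N2 at 120 min, against 0.53 in CO and 0.62 in N2 at 60 min. The regulator genes PDR1 and PDR3 had turns of 0.01 ± 0.25 and 0.31 ± 0.21. None of SNQ2, TPO1 and PDR15 was called (adjusted p of 0.0893 to 0.185).

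Of 11 Ty1 and Ty2 gag-pol ORFs, likewise listed after values were seen and near-identical in sequence, 8 were higher on both arrays and 0 were called. Of all ORFs 25.1% were higher on both, and as these members were picked by their values the count is a description. YML039W had 1.71 in CO and 2.06 in N2 at 120 min, against 0.16 in CO and 0.72 in N2 at 60 min, and 3.83 in CO and 4.56 in N2 at 24 h. In iron uptake, where ARN2 was called, 9 of 26 (34.6%) were higher on both arrays, and 5 under quantile normalization. Lower on both were 3 (11.5%), where 25.1% of all ORFs were higher and 22.9% lower on both. At least 2-fold in both gases, 2 members were higher and 1 was lower. FRE3, a ferric reductase gene, had 1.64 in CO and 1.45 in N2 at 120 min, against 0.39 in CO and 0.31 in N2 at 60 min, and the wall mannoprotein gene FIT3 had 2.30 in CO and 1.62 in N2 at 120 min, against 1.17 in CO and 0.96 in N2 at 60 min.

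ORFs without an entry in R64 made up 10 of the 48 (20.8%) that were at least 2-fold higher in both gases and 6 of the 104 (5.77%) that were at least 2-fold lower, where they were 5.90% of all 5730. This share was not tested.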
